A study of Mus musculus with 12 samples.

Results

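Markers of GABAergic neurons and of their interneuron classes, 10 genes in all, were followed in the mouse nucleus accumbens (NAC): Calb2, Ndnf, Reln, Pvalb, Nos1, Lhx6, Nkx2-1, Gad1, Gad2 and Slc32a1. Each was read from the probeset that the array annotation assigns to that gene alone, and where there were several, from the one with the highest mean log2 intensity over all arrays. All 10 were found among 22180 annotated genes. Calb2 and Ndnf were already known from these arrays to be among the larger differences, so their difference between groups is given as a description with no test. The other 8 are standard markers, and the test of each comes from the fit over the whole array.

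NAC punches holding core and shell were taken from 6 postpartum and 6 virgin outbred hsd:ICR females, all adult, and each mouse was hybridised to its own array. Postpartum mice had been housed with a breeder male, had given birth and were lactating on postpartum day 7 with litters culled to 11 pups where needed. Virgin mice were age-matched, had been housed with other females in place of a male, were in diestrus and were collected on the same days. Per the labels, females of both groups were caged singly after the mating period, the postpartum mice with their litters from birth on. The comparison covers mating, pregnancy, parturition and nursing together. Spearman correlations between arrays ran from 0.976 to 0.990, and array median intensities lay between 153 and 165. None of 13 measured markers of striatal projection neurons had a value under 1. Only 914 of all 41345 probesets had such a value, so this does not check the labelled tissue. Drd2, the D2 dopamine receptor, averaged 3002 ± 463 in postpartum and 3235 ± 325 in virgin NAC (SD, n = 6 each).

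Neurons of the NAC are nearly all GABAergic. Most are projection neurons, and a small minority are interneurons that regulate them locally. GABA is made by the glutamate decarboxylases Gad1 and Gad2 and loaded into vesicles by Slc32a1, the vesicular GABA transporter, and these genes serve projection neurons and interneurons alike. Interneuron classes are told apart by other genes: Pvalb (parvalbumin) in fast-spiking cells, Nos1 (neuronal nitric oxide synthase) in cells that also make Sst and Npy, and Calb2 (calretinin) in a further class. Ndnf, a secreted neurotrophic factor, and Reln (reelin), a large secreted glycoprotein, mark neurogliaform and layer 1 interneurons of cortex. Nkx2-1 and Lhx6 are transcription factors that act in sequence to specify interneurons born in the medial ganglionic eminence.

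The promoter stretches below are shown for Slc32a1, Gad2 and Nkx2-1, because levels of these genes varied together between mice, as described further on. They are RefSeq sequences of build GRCm38.p6, written 5′ to 3′ on the gene's strand, and capitals mark an E-box, the motif CANNTG, which reads the same on both strands. Stretches of 30 bases are given for Slc32a1 (chr2:158610709-158610738, plus strand, E-box starting 37 bases before the annotated start) and Gad2 (chr2:22622239-22622268, plus strand, E-box starting 76 bases before it), and 250 bases upstream of the start for Nkx2-1 (chr12:56536909-56537158, minus strand, E-box starting 205 bases before it).
Slc32a1: ccagaaatgcagCACTTGgggggcccccac
Gad2: ctccctcccccgCATCTGactcgcacctca
Nkx2-1: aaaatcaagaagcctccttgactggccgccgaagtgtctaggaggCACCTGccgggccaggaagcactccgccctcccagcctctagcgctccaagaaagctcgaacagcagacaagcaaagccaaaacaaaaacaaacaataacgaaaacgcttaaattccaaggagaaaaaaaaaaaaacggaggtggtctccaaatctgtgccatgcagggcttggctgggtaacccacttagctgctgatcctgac
An E-box was present in 66.2% of all 32851 promoter windows of 250 bases, so a match is common. All 8 members that have a window held a match, so it does not set Slc32a1, Gad2 and Nkx2-1 apart. In Slc32a1 the same letters also read CAAGTG on the other strand, the core bound by NKX2 factors, which was found on either strand in 11.6% of windows and in none of the other 7 members that have a window in the table. These are matches of letters only.

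Calb2, the calcium-binding protein calretinin, was higher in postpartum NAC. Its intensity was 561 at the lowest, 748 at the median and 985 at the highest in postpartum mice, against 398, 527 and 621 in virgin mice. Of the postpartum mice, 5 lay above every virgin mouse, and the remaining mouse, replicate 4, lay above the virgin median but inside the virgin range. The log2 difference was 0.58 ± 0.15 (standard error, as for the other log2 differences), or 1.5-fold. In bulk tissue, fewer or more cells of a type and less or more RNA per cell cannot be told apart.

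Ndnf was higher by nearly the same amount. Its intensity was 851 at the lowest, 1071 at the median and 1240.3 at the highest in postpartum mice, against 488, 764 and 856 in virgin mice. Here too 5 postpartum mice lay above every virgin mouse, and the lowest postpartum value, that of replicate 3, was just under the highest virgin value. The log2 difference was 0.58 ± 0.13, or 1.49-fold, and 0.726% of all annotated genes differed by at least as much in either direction. This share only describes its size, since Ndnf was chosen with its difference known. Virgin replicate 3 had the lowest value of its group for both genes, and without it the log2 differences were 0.51 for Calb2 and 0.47 for Ndnf. Between mice of one group the pair had a Pearson's r of 0.33 (permutation p = 0.28, adjusted over 45 pairs p = 0.525) and a Spearman's rho of 0.17 (permutation p = 0.588) over 12 mice after group means were removed, at r = -0.0071 within postpartum (exact permutation p = 0.989) and 0.67 within virgin mice (exact permutation p = 0.147).

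**Figure D1:**
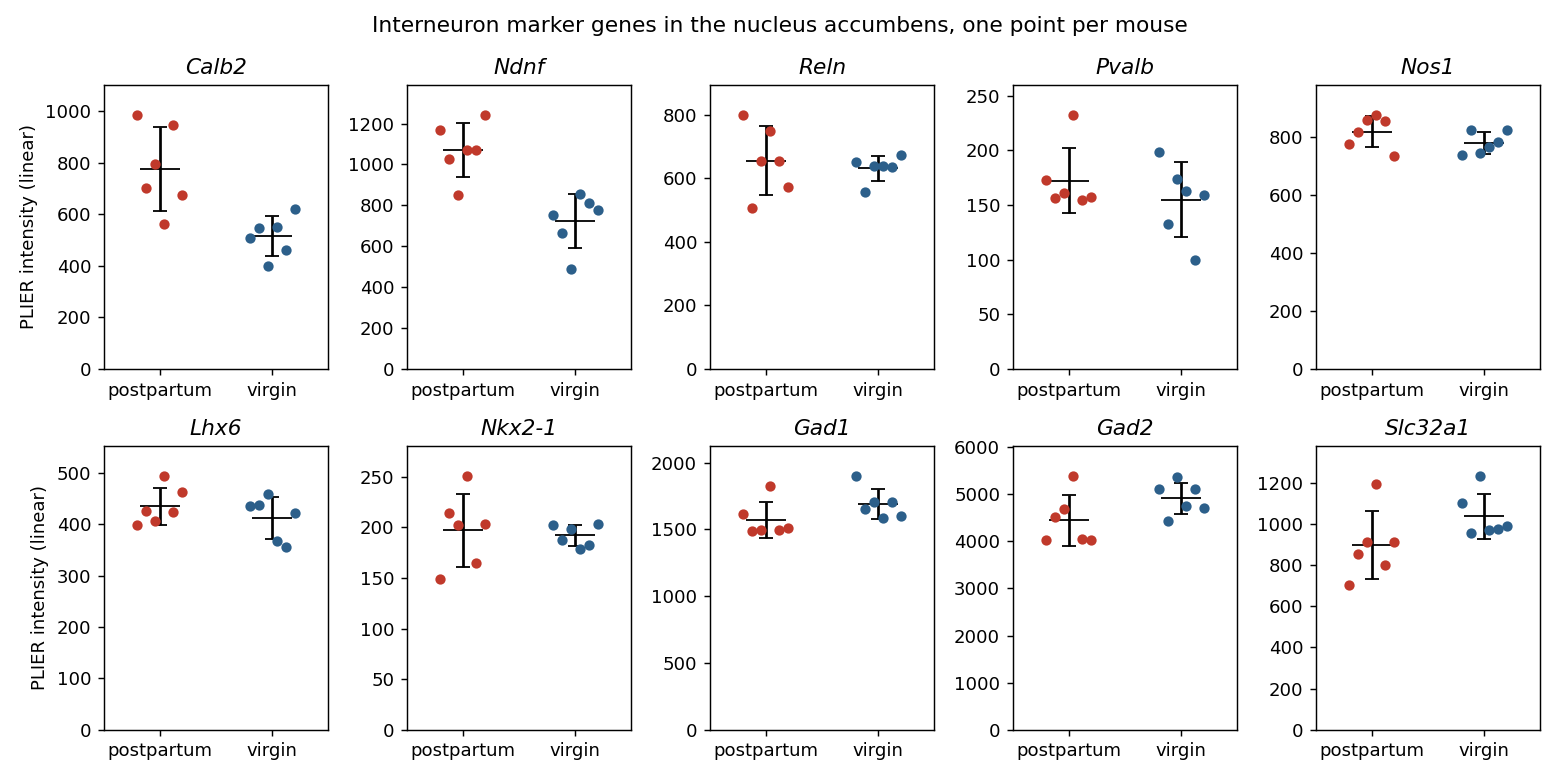
PLIER intensity on a linear axis from 0 for each of the 10 marker genes, with 1 point per mouse, 6 postpartum mice at left and 6 virgin mice at right, and the mean ± SD in black. Calb2 and Ndnf have 5 of 6 postpartum points above all virgin points, while the groups overlap more widely in the other 8 genes, apart from Slc32a1, where 5 of 6 postpartum points lie below all virgin points.

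Reln, the other marker of neurogliaform cells, had a closely similar centre in both groups. Its intensity was 507 at the lowest, 656 at the median and 799 at the highest in postpartum mice, against 557, 639 and 672 in virgin mice, so the postpartum range enclosed the virgin range. The log2 difference was 0.04 ± 0.10 (p = 0.704 by limma, 0.710 by exact permutation).

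The markers of fast-spiking cells and of nitric oxide cells did not pass. Pvalb had a lowest intensity of 154.5, a median of 159 and a highest of 232 in postpartum mice, against 99.7, 161 and 199 in virgin mice. Its mean log2 intensity was at percentile 50.9 of all probesets, close to the array median. A single postpartum mouse, replicate 4, lay above the virgin range, and the log2 difference of Pvalb, 0.17 ± 0.16 (p = 0.297 by limma, 0.359 by exact permutation), was about 1 standard error. Nos1 had a lowest intensity of 733, a median of 836 and a highest of 874 in postpartum mice, against 737, 773 and 823 in virgin mice. Its log2 difference was 0.07 ± 0.05 (p = 0.230 by limma, 0.190 by exact permutation), with 3 postpartum mice above and 1 below every virgin mouse.

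The transcription factors of medial ganglionic eminence interneurons did not pass either. Lhx6 ranged from 399 to 494 in postpartum mice (median 425), against 355 to 458 in virgin mice (median 428), with a log2 difference of 0.08 ± 0.08 (p = 0.325 by limma, 0.331 by exact permutation). Nkx2-1, which acts upstream of Lhx6, ranged from 149 to 251 in postpartum mice (median 203), against 179 to 203 in virgin mice (median 193), with a log2 difference of 0.02 ± 0.11 (p = 0.870 by limma, 0.887 by exact permutation). Its mean log2 intensity was at percentile 56.3 of all probesets. For Nkx2-1 the postpartum values reached past both ends of the virgin range, with 2 mice above and 2 below it. The SD of log2 intensity was 0.27 in postpartum and 0.08 in virgin mice for Nkx2-1, and 0.24 in postpartum and 0.09 in virgin mice for Reln. Of the 10 genes, 7 had the larger SD in postpartum mice. The share over all annotated genes was not computed, so nothing is read from this count.

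The GABA synthesis and transport genes had lower means in postpartum NAC, without passing the threshold. Slc32a1 was 705 at the lowest, 884 at the median and 1194 at the highest in postpartum mice, against 955, 984 and 1234 in virgin mice. Of the postpartum mice, 5 lay below every virgin mouse and replicate 4 was the second highest of all 12. The log2 difference was -0.22 ± 0.11 (p = 0.0736 by limma, 0.0974 by exact permutation). A second probeset of Slc32a1, at 85.8 to 123 in postpartum and 100.3 to 153 in virgin mice, gave a log2 difference of -0.23 ± 0.11 (p = 0.0606 by limma, 0.0736 by exact permutation), with all 6 postpartum mice below the virgin median. This probeset was dim, at percentile 40.1 of all probesets by mean log2 intensity.

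Gad2, which makes the decarboxylase found mainly at synapses, was 4028 at the lowest, 4280.0 at the median and 5388 at the highest in postpartum mice, against 4439.8, 4928 and 5362 in virgin mice. Its log2 difference was -0.15 ± 0.08 (p = 0.0878 by limma, 0.104 by exact permutation). Gad1, which makes the decarboxylase spread through the cell, was 1489 at the lowest, 1503 at the median and 1828 at the highest in postpartum mice, against 1588, 1679 and 1899 in virgin mice, a log2 difference of -0.11 ± 0.06 (p = 0.115 by limma, 0.115 by exact permutation). In each of the 3 genes 5 postpartum mice lay below the virgin median, and the 1 that did not was replicate 4. Without that mouse the log2 difference was -0.31 for Slc32a1 (p = 0.00537 by limma, 0.00216 by exact permutation) and -0.20 for Gad2 (p = 0.00977 by limma, 0.0173 by exact permutation), both under 0.01 by limma, and -0.15 for Gad1 (0.013 by exact permutation). That mouse was singled out after its values were seen, so these p-values are a description only. Dixon's test for outlying mice, given further on, did not flag it in any of the 3 genes. For Slc32a1 the other 5 all lay below every virgin mouse, so 0.00216 is the smallest exact p that 5 against 6 can give. All 13 measured projection neuron markers also had negative differences (from -0.38 to -0.07, median -0.18), of which Rgs9, a regulator of G protein signalling, fell (-0.26 ± 0.08, p = 0.00799 by limma, 0.0108 by exact permutation). Penk, the enkephalin precursor (-0.23, p = 0.0143 by limma, 0.0152 by exact permutation), and Drd1, the D1 dopamine receptor (-0.34, p = 0.0155 by limma, 0.0346 by exact permutation), did not pass 0.01. Penk passed under 5 of 22 alternatives, linear intensities among them (limma p 0.00951). Rgs9 no longer passed with any of postpartum replicates 1, 4, 5 and 6 or virgin replicates 1, 2, 5 and 6 left out (highest limma p 0.0198), nor with array medians centred, array weights or replicate number as a block (up to 0.0373). The summed intensity of the 13 markers was 27584 to 35839.7 in postpartum and 32390.0 to 38419.9 in virgin mice. Between mice of one group, with group means removed, Slc32a1 had an r of 0.58 with the mean log2 level of these markers (permutation p = 0.0834, adjusted over 12 relations with marker lists p = 0.2), and a rho of 0.73 (permutation p = 0.0175, adjusted p = 0.078). Without the 2 mice farthest from the Slc32a1 median r was 0.67. The part of these markers in the group differences of Slc32a1, Gad1 and Gad2 was not tested.

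**Figure D2:**
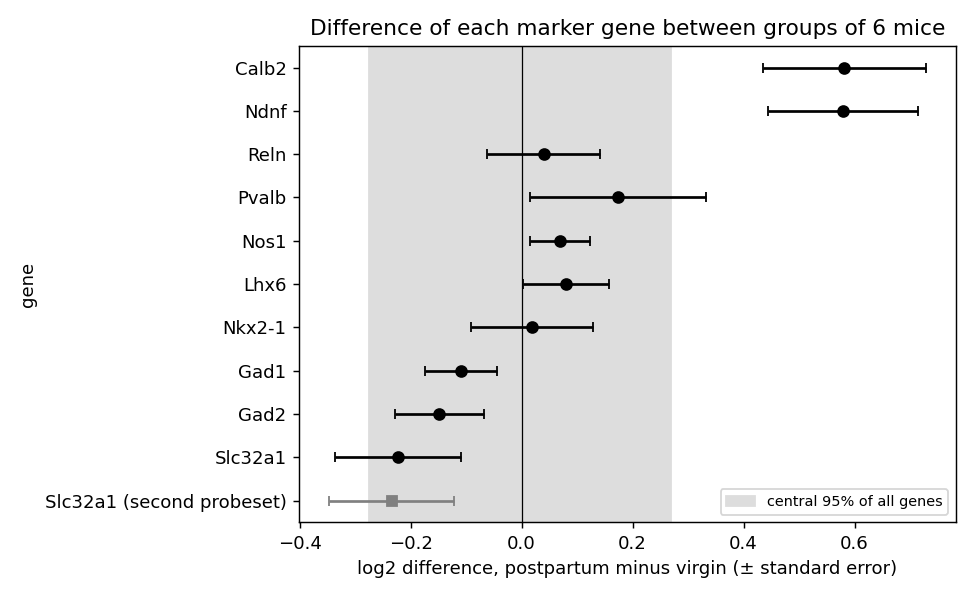
Log2 difference, postpartum minus virgin, for each marker gene with its standard error (6 mice per group), the second Slc32a1 probeset in grey, and a grey band holding the central 95% of all annotated genes (-0.28 to 0.27). Calb2 and Ndnf, both at 0.58, lie beyond the band, and the other members lie within it.

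At the threshold of the study, an unadjusted limma p under 0.01, applied here to log2 intensities, 2 of the 10 genes were called, both higher. Of all annotated genes 2.8% were called. Nothing is read from the count of 2, since Calb2 and Ndnf were chosen by it. None of the 8 others passed 0.01 or the wider threshold of 0.03, at which 6.56% of genes were called. Adjusted p over all probesets ran from 0.595 for Slc32a1 to 0.974 for Nkx2-1 among the 8. By limma on log2 intensities no probeset of the array passed an adjusted p under 0.05, while 3685 had an unadjusted p under 0.05. With a variance trend 16 probesets passed the adjusted threshold, on linear intensities 10 and among above-median probesets 26, but no member under any of these 3. The median log2 difference was 0.03 over the 8 genes and -0.0052 over all annotated genes.

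Differences between mice of one group linked the members in a way that the group comparison did not use. With group means removed, Calb2 was low in mice where Slc32a1 was high (Pearson's r = -0.85 over 12 mice, permutation p = 0.00145, adjusted over 45 pairs p = 0.0435; Spearman's rho = -0.85, permutation p = 0.00318, adjusted p = 0.117). The inverse relation held within postpartum mice (r = -0.91, exact permutation p = 0.00694) and had the same sign within virgin mice (r = -0.74, exact permutation p = 0.0819). Slc32a1 tracked Nkx2-1 (r = 0.85, permutation p = 0.0029, adjusted p = 0.0435; rho = 0.77) and Gad2 (r = 0.84, permutation p = 0.00217, adjusted p = 0.0435; rho = 0.72). Within the groups these were 0.93 in postpartum and 0.57 in virgin mice for Nkx2-1, and 0.85 in postpartum and 0.80 in virgin mice for Gad2. These 3 of 45 pairs passed an adjusted p under 0.05, and none did by Spearman's rho or when any of postpartum replicates 1, 3, 4 and 5 or virgin replicates 1, 2, 3 and 4 was left out.

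Calb2 also ran opposite to Gad2 (r = -0.75, adjusted permutation p = 0.0827) and to Nkx2-1 (r = -0.75, adjusted permutation p = 0.0827), the second seen within postpartum mice (r = -0.97) and not within virgin mice, where r was near 0. Nos1 had no r beyond 0.26 in size with any other member. Its r with Gad2 was 0.69 within postpartum and -0.79 within virgin mice, and the difference between these was not tested. Without the 2 mice farthest from the Calb2 median, its r with Slc32a1 was -0.67, and those of Slc32a1 without the 2 mice farthest on the other gene were 0.55 with Gad2 and 0.54 with Nkx2-1. Postpartum replicate 4, which had the highest Slc32a1, Gad2, Gad1, Nkx2-1, Lhx6 and Pvalb of its group and the lowest Calb2, lay at an end of each relation, and without 1 mouse r was at its weakest -0.78 for Calb2 with Slc32a1, 0.66 for Gad2 with Slc32a1 and 0.73 for Nkx2-1 with Slc32a1.

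**Figure D3:**
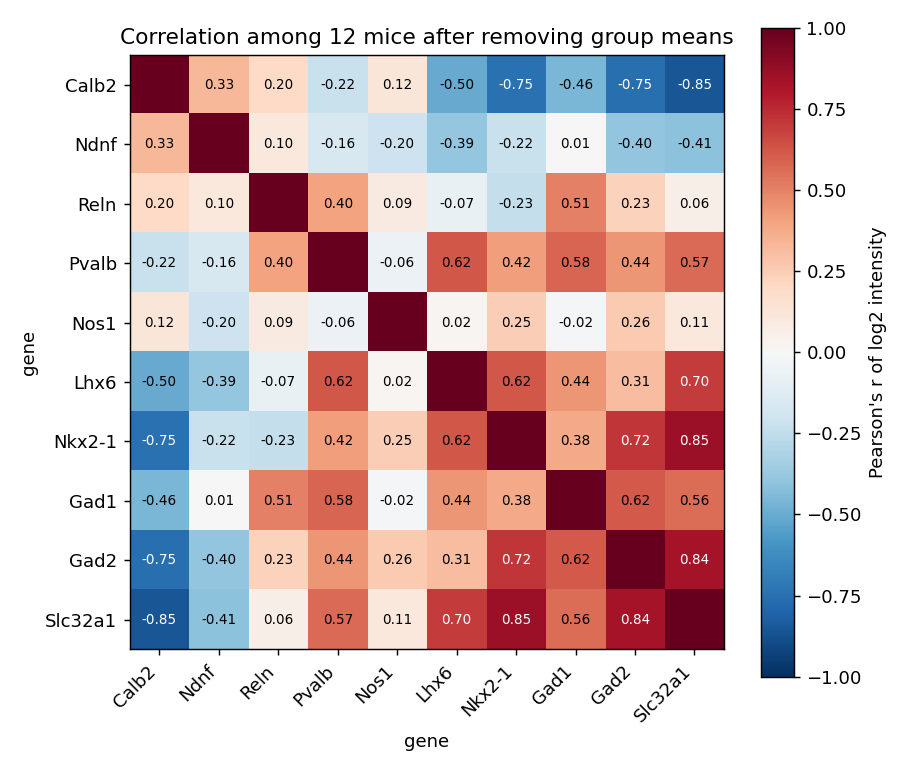
Pearson's r of log2 intensity over 12 mice for every pair of the 10 genes after group means were removed, from blue (-1) to red (1). Slc32a1, Gad2, Nkx2-1 and Lhx6 are positively related to each other (0.31 to 0.85), and Calb2 is negatively related to all of them (-0.85 to -0.50).

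**Figure D4:**
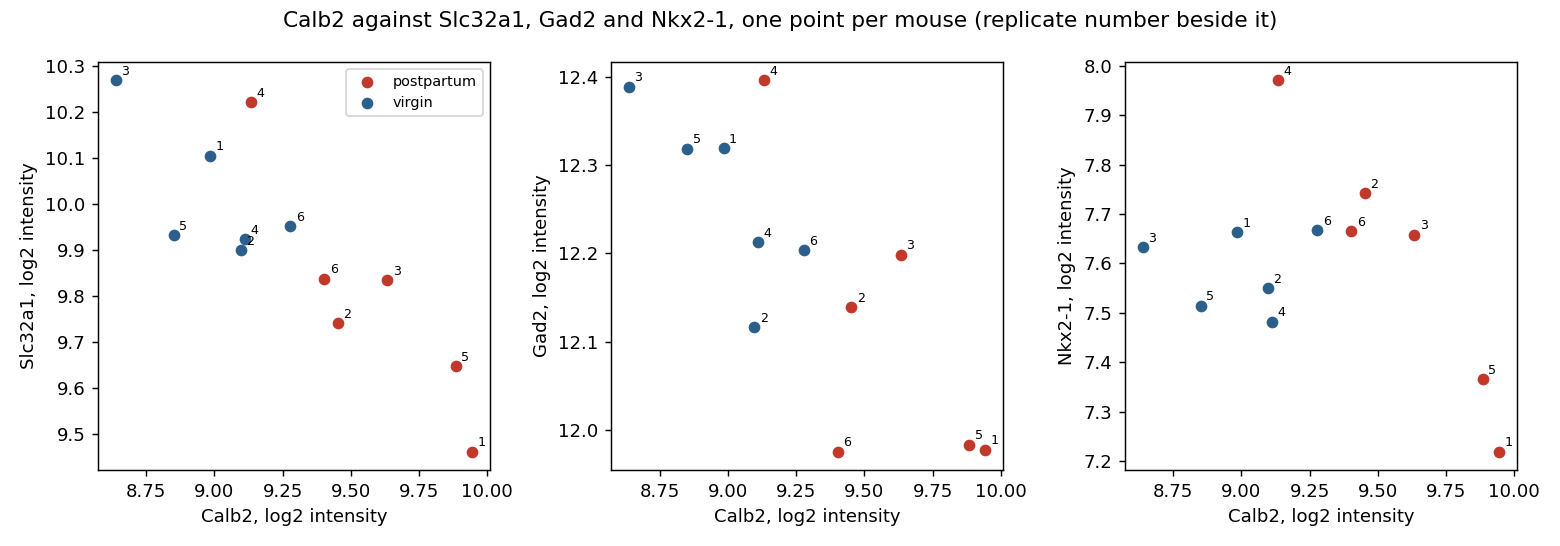
Log2 intensity of Slc32a1, Gad2 and Nkx2-1 against that of Calb2, with 1 point per mouse, postpartum mice in red and virgin mice in blue, and the replicate number beside each point. Postpartum replicate 4 sits away from its group, among the virgin mice, in the panels of Slc32a1 and Gad2.

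By Pearson's r, markers of neurons from neighbouring regions varied with Calb2 and Slc32a1 between mice. By Spearman's rho no relation passed an adjusted permutation p under 0.05 (lowest 0.078). Calb2 was high where the mean log2 level of 11 markers of cortical glutamatergic neurons was high (r = 0.83, permutation p = 0.00142, adjusted over 12 relations p = 0.017; rho = 0.71, permutation p = 0.0158), at r = 0.78 within postpartum and 0.92 within virgin mice, and Slc32a1 was low there (r = -0.82, adjusted p = 0.0261; rho = -0.70). Without the 2 mice farthest from the median of Calb2 or of Slc32a1 these were 0.59 and -0.39. With 12 markers of septal, pallidal, thalamic or hypothalamic neurons the signs of r were opposite. They were -0.71 for Calb2 (adjusted p = 0.045, rho = -0.53) and 0.86 for Slc32a1 (adjusted p = 0.0261, rho = 0.64). Without the 2 farthest mice, however, r was 0.01 and 0.39. With projection neuron markers Calb2 had an r of -0.53 (permutation p = 0.122, adjusted p = 0.209). Ndnf had no adjusted p under 0.05 with any of 4 lists (0.209 to 0.286). Between groups, none of the 11 cortical markers passed 0.01 (9 positive differences, median log2 difference 0.13, summed intensity 11022 to 16781 in postpartum and 11077 to 14583 in virgin mice). Cux2, which had the smallest p of that list, was lower (-0.15 ± 0.05, p = 0.0191 by limma, 0.0152 by exact permutation). All 6 postpartum mice lay below the virgin median of Cux2, and it passed 0.01 under 2 of 22 alternatives. Of the 12 markers of the other regions, 6 had positive and 6 negative differences, with a median of -0.0076. Trpc4, a cation channel (0.50 ± 0.12, p = 0.00162 by limma, 0.00649 by exact permutation), and Slc17a6, a vesicular glutamate transporter (0.41 ± 0.12, p = 0.00616 by limma, 0.0195 by exact permutation), rose, the second not when postpartum replicate 1, 3, 4 or 6 or virgin replicate 1, 2, 4, 5 or 6 was left out (highest limma p 0.0156). The summed intensity of these 12 was 3413 to 6182 in postpartum and 3602 to 4995 in virgin mice. Of 13 neuroblast markers, only Cd24a, a surface glycoprotein, rose (0.59 ± 0.14, p = 0.00147 by limma, 0.00433 by exact permutation), while 12 of the 13 had positive differences, with a median of 0.14. Next by p were Sox11 (0.23 ± 0.08, p = 0.0145 by limma, 0.0238 by exact permutation) and Sp8 (0.33 ± 0.12, p = 0.0166 by limma, 0.0303 by exact permutation), transcription factors of immature neurons, and for both all 6 postpartum mice lay above the virgin median. The summed intensity of the 13 neuroblast markers was 11066 to 12448 in postpartum and 10617 to 11601 in virgin mice. Much of it came from Stmn2 (mean 4947 in postpartum and 4702 in virgin mice) and Tubb3 (2614 and 2605). No marker of these lists had a value under 1, which also held for most probesets. The part of these markers in the higher Calb2 and Ndnf was not tested.

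The genes most alike in pattern were sought among 13308 others of above-median intensity, as a description, by r over the same 12 mice after group means were removed. For Calb2 they were Ube2ql1, Spast, Tmem170b, Glrx2 and Efr3a (r from 0.91 to 0.93), and for Ndnf they were Gja6, 2310067E19Rik, Dgki, Foxi2 and Rhag (r from 0.86 to 0.89). Reln was closest to Arhgap5, Mindy2, 2610008E11Rik, Gria4 and Arap2 (0.84 to 0.89), Pvalb to Wbp1, Rhog, Slc25a53, Myorg and Olig2 (0.90 to 0.93), and Gad1 to Chrm2, Dpm3, Sec24b, Hlcs and As3mt (0.89 to 0.94). None of the 10 markers was among these.

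Other genes of the same cell classes and pathways were followed in 5 lists holding 115 measured genes, each counted once. Of these 5 rose and none fell at limma p under 0.01, a share of 4.35%, where 1.72% of all annotated genes rose and 1.08% fell. Their median log2 difference was 0.05. Of the 115, 106 were of above-median intensity. In a fit of above-median probesets alone 6 of these 106 were called (5 higher, 1 lower), and 636 of all 13309 such genes (449 higher, 187 lower). The shares lie closer together there. Among 30 interneuron class genes, Calb1 alone rose. Calb1, the calcium-binding protein calbindin, which projection neurons also make, was 2025 at the lowest and 3165 at the highest in postpartum mice, against 1830.3 and 2289 in virgin mice, and 5 postpartum mice exceeded every virgin mouse (log2 difference 0.40 ± 0.10, p = 0.00172 by limma, 0.00649 by exact permutation). The peptide genes that share cells with Nos1 did not pass, with Sst at 0.05 ± 0.09 (exact permutation p = 0.602) and Npy at 0.15 ± 0.11 (exact permutation p = 0.212), and neither did Vip, a peptide of another class, at 0.43 ± 0.24 (exact permutation p = 0.134). None of 19 interneuron transcription factors passed (median -0.0068).

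Of 16 genes of GABA release, uptake and inhibitory synapses, Slc38a2, an amino acid transporter that supplies glutamine, rose by 0.22 ± 0.07 (p = 0.00712 by limma, 0.00866 by exact permutation), and the median was 0.01. The largest difference of that list was in Slc6a13, a GABA transporter made mainly in the meninges, at 394.5 to 634 in postpartum and 480.0 to 1070.3 in virgin mice (-0.56 ± 0.19, p = 0.0111 by limma, 0.0238 by exact permutation). It passed 0.01 under 7 of 22 alternatives, and all 6 postpartum mice lay below the virgin median. Slc6a13 was also among 11 measured choroid plexus, ependymal and meningeal markers, of which none passed, with a median of -0.24 and a summed intensity of 2657 to 3213 in postpartum and 2686 to 4952 in virgin mice, and their part in its difference was not tested. Of 27 genes of reelin signalling, nitric oxide signalling and perineuronal nets, Hapln1, a link protein of perineuronal nets, rose by 0.20 ± 0.07 (p = 0.00977 by limma, 0.013 by exact permutation). Slc38a2 did not pass without postpartum replicate 1, 2, 3, 5 or 6 or virgin replicate 2, 4 or 6 (highest limma p 0.0175). Hapln1 did not pass without postpartum replicate 1, 2, 3 or 5 or virgin replicate 1, 2, 3, 4 or 5 (highest limma p 0.024), nor with array weights (0.0111) or the replicate block (0.0245). Acan, the aggrecan of those nets, differed by -0.10 ± 0.07 (exact permutation p = 0.184). Of 24 calcium-binding and calcium-sensor genes 3 rose, with a median of 0.08: Calb1, Calml4, a calmodulin-like protein (0.37 ± 0.08, p = 0.000788 by limma, 0.00216 by exact permutation, the smallest that 6 against 6 can give), and Calr (0.25 ± 0.07, p = 0.00227 by limma, 0.00649 by exact permutation). Calr is an endoplasmic reticulum chaperone and holds no EF-hand, the calcium-binding fold of calretinin, parvalbumin and calbindin. All 6 postpartum mice exceeded every virgin mouse for Calml4. None of these genes passed an adjusted p under 0.05 (0.286 for Calml4, the lowest).

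**Figure D5:**
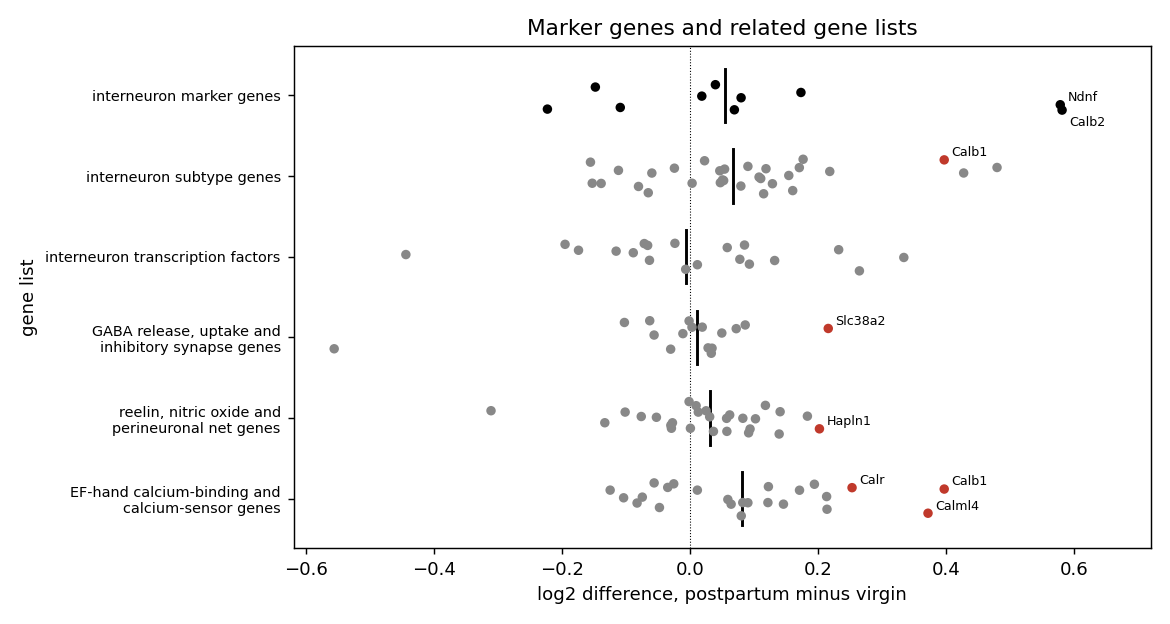
Log2 difference, postpartum minus virgin, of the 10 marker genes (black) and of the genes in 5 related lists (grey, or red where limma p was under 0.01), with 1 point per gene and a vertical line at each median. The 5 genes called, with Calb1 on 2 lists, are all on the right of 0, and no list median is beyond 0.08.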

How the data were processed

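The nucleus accumbens (NAC) of 12 mice was measured on 12 GeneChip Mouse Gene 2.0 ST arrays, 1 mouse per array, with groups taken from the labels. The authors summarized and normalized the probes with PLIER (Affymetrix Power Tools 1.12.0 in the submitters' notes) and deposited linear intensities, all of which are used here as 1 value per probeset and array. Values under 1 were set to 1 before the log2 step, which understates changes of very dim probesets. In R 4.3.3, all 41345 probesets went into 1 limma fit (version 3.58.1, functions lmFit and eBayes) with Benjamini-Hochberg adjustment over the whole table. The methods name limma without a scale. At limma p under 0.01, 1262 probesets were called on linear intensities and 951 on log2 intensities. The count printed in the paper lies close to the linear one, so calls of the log2 fit can differ from the study's. A probeset was named where the platform annotation gives 1 gene (23521 probesets, 22180 genes; 1820 had several genes and 16004 were not listed), and the brightest stood for a gene. Two-sided exact permutation tests ran over all splits of 6 against 6 arrays. Correlations used log2 values with the group mean removed and a permutation p from 100000 shuffles within groups, adjusted over all pairs. Text names follow a rule: all members, related-list genes with p under 0.01 (at most 4 a list), at most 3 genes of smallest p in a cell list with Drd1 and Drd2, and the 5 most alike genes. Sst, Npy, Vip, Acan and Slc6a13 (outside its cell list) were named in addition, after their values were seen. The members and lists were chosen with earlier results of these arrays known. Alternatives covered normalization, centring, scale, floor, a filter, variance models, array weights, replicate number as a block, other probesets and each array left out. Relations to cell lists were added after the data were seen. Replicate numbers did not pair the mice (same-number correlations of -0.21 to 0.20), and the labels name no scan batch. The fit was tested on simulated data. Every mouse is a biological replicate per the labels, and the number of arrays limits precision.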

Additional observations from a re-analysis of the deposited data

Results flagged for a closer look

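In 20 sets of 6 mice (10 genes, 2 groups), 2 held a mouse far from the rest of its group by Dixon's test on log2 intensities at the 95% level, which chance gives in about 1 set of 20. Pvalb was 232 in postpartum replicate 4, against 154.5 to 173 in the other postpartum mice, a gap of 0.728 of the group's range in log2. Reln was 557 in virgin replicate 2, the lowest of its group, a gap of 0.702 of the range in log2. Without these mice the log2 difference was 0.08 for Pvalb and 0.0033 for Reln, and neither had a limma p under 0.01.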

How the results depend on the processing

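Some of the 22 alternatives cannot change a log2 difference: the filter, the variance models and the block. The mean over probesets cannot change it for a gene with 1 probeset. Calb2 stayed higher in postpartum NAC under all 22 alternatives (0.51 to 0.67), as did Ndnf (0.47 to 0.64). Pvalb, Nos1, Lhx6 and Gad1 kept their direction and did not pass. Gad2 and Slc32a1 kept theirs and passed 0.01 only without postpartum replicate 4; leaving out 1 mouse gave -0.20 to -0.12 for Gad2 and -0.31 to -0.16 for Slc32a1. The small differences of Reln and Nkx2-1 changed sign, Reln with array weights (-0.0051) and over 1 mouse left out (-0.0202 to 0.11), Nkx2-1 over 1 mouse left out (-0.0549 to 0.10). The count of members under 0.01 was 1 with replicate number as a block, since Calb2 no longer passed, and 2 to 4 with 1 mouse left out, the 4 without postpartum replicate 4. The block gave 652 probesets, against 951 without it. Numbers did not pair the mice, and not every mouse correlated best with its own number. Related genes called numbered 8 on linear intensities, 3 with the block, and 3 to 7 with 1 mouse left out (3 without postpartum replicate 1 or 5 or virgin replicate 4). Calml4 and Calr passed under all 22 alternatives, Calb1 and Cd24a under all but the block, and Trpc4 under all. Slc38a2 missed 0.01 under 9, Hapln1 and Rgs9 under 11 each, and Slc17a6 under 10. Correlated pairs past an adjusted p under 0.05 numbered 5 with array medians centred, 0 by Spearman's rho and 0 to 4 with 1 mouse left out, 0 without any of postpartum replicates 1, 3, 4 and 5 or virgin replicates 1, 2, 3 and 4. Centring gave 856 higher and 207 lower probesets (80.5% higher), against 511 and 440 (53.7%) in the values as deposited, and above-median probesets alone 547 and 304 (64.3%). No detection call was used, so how far dim probesets lie above background was not measured.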
